A study of Mus musculus with 9 samples.

Results

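Jrkl is the gene described here, 1 of 112 genes named through RefSeq, and the 1 probe of 59709 that carried its transcript, on 9 single-colour Agilent arrays of mouse abdominal aorta. The arrays formed 3 groups of 3. Controls were male mice titled wild type, CaPO4 arrays came from males with an abdominal aortic aneurysm induced with calcium phosphate, and naringenin arrays came from males with such an aneurysm that were also treated with naringenin, a flavonoid of citrus fruit. Neither strain, age, dose nor treatment time was available from the labels. The series text describes 5 mixed aortas per group without saying whether an array held a pool, an animal or a repeat of 1 pool, so any test here measures only the spread between arrays, which may be technical. Jrkl was chosen by its measured levels and background marks on the CaPO4 and naringenin arrays, which it separated completely. The levels of Jrkl and everything drawn from that contrast are therefore descriptions with no test.

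Jrkl (jerky-like) is a protein-coding gene derived from a transposase of the pogo and Tigger group of DNA transposons. Its relatives include Jrk, the gene of the jerky mouse, and Cenpb, whose protein binds a repeated DNA motif at centromeres. Proteins of this family keep a DNA-binding region inherited from the transposase, and the cellular role of Jrkl itself is little known. In the GRCm38 annotation Jrkl lies on chromosome 9, next to Ccdc82. None of the 8 relatives listed for comparison (Jrk, Cenpb, Tigd2, Tigd3, Tigd4, Tigd5, Pogk and Pogz) and none of 9 other transposase-derived genes was named on the array, so Jrkl could not be set beside its family. The defining markers of the aortic wall listed for smooth muscle, endothelium and fibroblasts were not named either, and only 3 of 29 listed cell type markers were, Amy2a5, Ccl21b and Ccl21c. The labelled tissue could thus not be checked against its own markers.

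The Jrkl spot was bright in all controls, bright to moderate in CaPO4 aortas and close to empty in naringenin aortas. Its processed intensity, which is background-subtracted and in arbitrary units with no scaling between arrays, was 159, 203 and 197 on control 1 to 3. On CaPO4 1 to 3 it was 43.5, 151 and 52.2. On naringenin 1 to 3 it was 4.81, 5.08 and 15.5. Every naringenin array lay below every other array, and before scaling every CaPO4 array also lay below every control. The error that the scanner software gave for the spot was 16.6, 20.9 and 20.4 in the controls. It was 5.46, 15.4 and 6.43 in CaPO4 and 3.04, 5.10 and 2.94 in naringenin. On naringenin 2 the error was thus as large as the processed intensity. There the processed intensity was not the net signal, which was 0.80 and not marked as above 0. The scaled level of naringenin 2 below rests on the processed value and is not a measured intensity.

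Levels are given in log2 relative to the 75th percentile of intensity on the same array, so a probe at that percentile has level 0. The controls had nearly equal percentiles, at 117, 116 and 117 intensity units. For CaPO4 1 to 3 they were 44.4, 83.4 and 42.6, and for naringenin 1 to 3 they were 87.1, 92.2 and 235. On this scale Jrkl stood at 0.44, 0.80 and 0.76 on the controls, with a mean of 0.67 ± 0.20 (SD, n = 3). It stood at -0.03, 0.86 and 0.29 on CaPO4 1 to 3, with a mean of 0.37 ± 0.45 (SD, n = 3). It stood at -4.18, -4.18 and -3.92 on naringenin 1 to 3, with a mean of -4.09 ± 0.15 (SD, n = 3). In order of level, controls came first, CaPO4 next and naringenin last. Controls and CaPO4 overlapped, since CaPO4 2 was the highest of all 9 arrays, and the naringenin group was apart from both. As RNA of whole aorta was measured, fewer cells that express Jrkl and less Jrkl RNA per cell cannot be told apart.

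**Figure D1:**
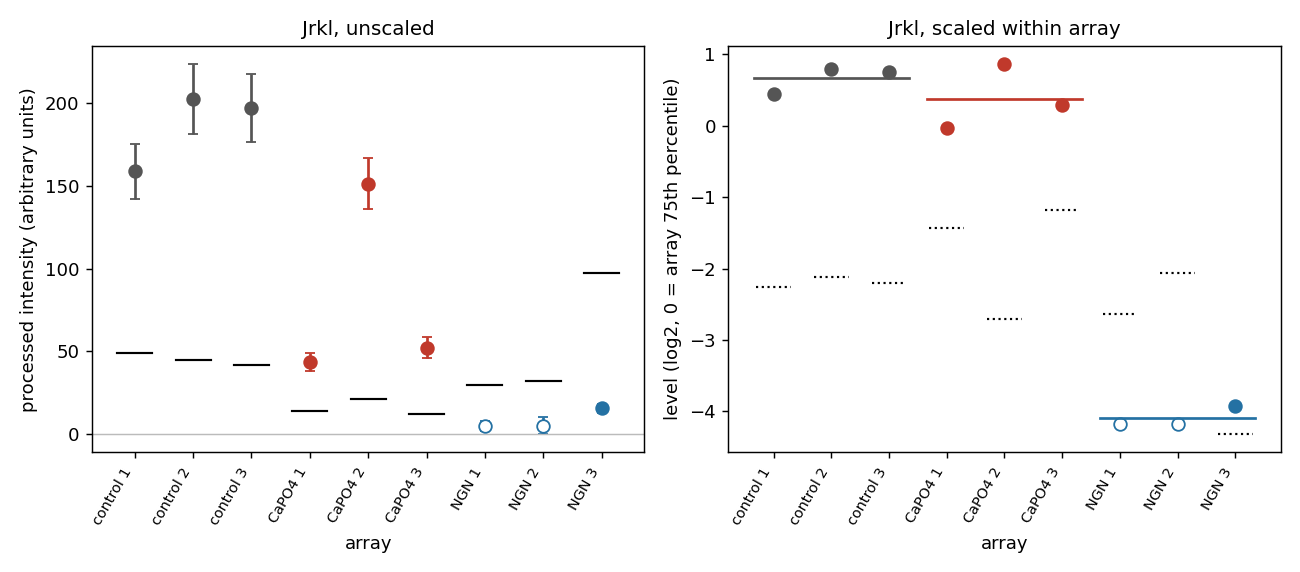
Jrkl on each of the 9 arrays, as processed intensity in arbitrary units with the error given by the scanner software (left) and as log2 level relative to the 75th percentile of the array (right), in controls (grey), CaPO4 (red) and naringenin (NGN, blue). Filled points were well above background; black lines mark the 95th percentile of the negative control spots (left), and dotted lines the lowest level well above background on that array and coloured lines the group means (right). The 3 naringenin points lie under the black lines, all other points above them.

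The naringenin values sat within the background of their arrays, so their size is a bound and not a measured level. The spot was well above background, as marked by the scanner software, on 3 of 3 control, 3 of 3 CaPO4 and 1 of 3 naringenin arrays. The array holds 1200 spots of probes that its design names as negative. They are repeats of only 20 probes, so their shares and percentiles describe few sequences. Of the 1200 spots, 1, 2 and 0 were brighter than the Jrkl spot on control 1 to 3, and 1, 0 and 1 on CaPO4 1 to 3, after subtraction of local background. On naringenin 1 to 3 the numbers were 387, 502 and 491, or 32.3, 41.8 and 40.9% of the 1200 spots. The naringenin 3 spot was marked as well above background with a net intensity of 15.2, while the 95th percentile of its negative controls was 97.5. On naringenin 2 the net intensity was 0.80, which the software did not mark as above 0, and the processed intensity was 5.08. How low Jrkl was thus depends on where background is set. With naringenin levels raised to the 95th percentile of the negative spots of each array, they stood at -1.54, -1.54 and -1.27. On the scale of the 75th percentile, Jrkl was then at least 3.54-fold lower in naringenin than in CaPO4 and at least 4.33-fold lower than in controls. These bounds were computed with that scaling only. Before scaling, the 97.5 of naringenin 3 lay above the Jrkl intensity on CaPO4 1 and 3, at 43.5 and 52.2. The floor at the 95th percentile was chosen after the data were seen. With the marks of the scanner software as floor the bounds were 9.50-fold and 11.6-fold, and there naringenin 3 entered at its own level of -3.92, which lay among the negative spots. The fitted differences, which run on into the background, were -4.47 ± 0.33 and -4.76 ± 0.33 log2 (SE of the limma model, n = 3 per group).

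The spot was not marked as an outlier or as saturated on any array, while its local background was marked as an outlier on control 2, control 3 and naringenin 3. It lay at row 272 of 384 in column 1 of 164, at the edge of the printed area, and it was the only spot of its probe. Of the 44 probes within 5 rows and 5 columns that passed the filter, 3 were lower on every naringenin array than on every CaPO4 array (6.82%, against 11.7% of all probes), and 31 of the 243 other probes in column 1 were (12.8%). The median naringenin minus CaPO4 difference was 0.18 log2 around the spot, 0.07 along the column and 0.11 over all probes. Spots around Jrkl were thus not low as a group. They carry other probes, and a fault of the single Jrkl spot was not tested.

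CaPO4 against control sets the aneurysm without naringenin beside the control aorta. As the CaPO4 arrays entered the choice of Jrkl, its values in this comparison are a description too, and no p-value is given. Jrkl differed by -0.29 ± 0.33 log2 (SE of the limma model, n = 3 per group), a difference smaller than its SE, and the levels of the 2 groups overlapped. The size depended on scaling. Without scaling the difference was -1.40 while the median of all probes was -1.15. Because all controls were scanned in a run of their own, this difference and naringenin minus control cannot be told apart from differences between scans. Naringenin 1 and 2 shared the scan of CaPO4, and naringenin 3 was scanned alone.

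The 3 CaPO4 arrays were not alike, and CaPO4 2 stayed with its group for few strongly different probes. Jrkl was among them, in part because it was chosen for separating all CaPO4 from all naringenin arrays. Over 18743 probes detected on all arrays, CaPO4 1 and 3 correlated at r = 0.994 across probes, which are not independent replicates. CaPO4 2 correlated with them at 0.821 and 0.828, and with naringenin 1 to 3 at 0.972, 0.972 and 0.901. Amy2a5, which encodes a pancreatic amylase, showed the same division. It stood at 0.14, 0.57 and 0.74 in the controls. CaPO4 1 to 3 had 2.07, 11.08 and 2.08, and naringenin 1 to 3 had 11.03, 11.15 and 9.96. Jrkl did not follow it, since CaPO4 2 had the highest Jrkl level and an Amy2a5 level like that of naringenin. Without CaPO4 2 the naringenin minus CaPO4 difference of Jrkl was -4.23. The spot values of these 4 Amy2a5-bright arrays also differed in form. On the other 5 arrays between 18.4 and 38.0% of spots shared 1 lowest value, at a level of -3.76 on CaPO4 1 and -3.51 on CaPO4 3, while on CaPO4 2 and all naringenin arrays the lowest value belonged to 0.0016% of spots. The naringenin levels of Jrkl lay below that lowest level of CaPO4 1 and 3. The part of these unequal floors in the size of the difference was not tested. The bound of at least 3.54-fold, which depends on the scaling, rests on no naringenin value under the 95th percentile of the negative spots.

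To place CaPO4 2 for each probe, its level was expressed as a position between the mean of CaPO4 1 and 3, set at 0, and the naringenin mean, set at 1. For Jrkl the position was -0.17, just outside the CaPO4 side. Among 2569 probes that were at least 2 log2 lower in naringenin than in CaPO4 1 and 3, the median position was 0.97, with quartiles at 0.70 and 1.08. CaPO4 2 was therefore at the naringenin level for most of them. Only 122 of them (4.75%) had a position of 0.25 or less, and 34 (1.32%, Jrkl included) had one at or below that of Jrkl. Since Jrkl was picked for separating all CaPO4 from all naringenin arrays, its low position follows in part from that choice.

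**Figure D2:**
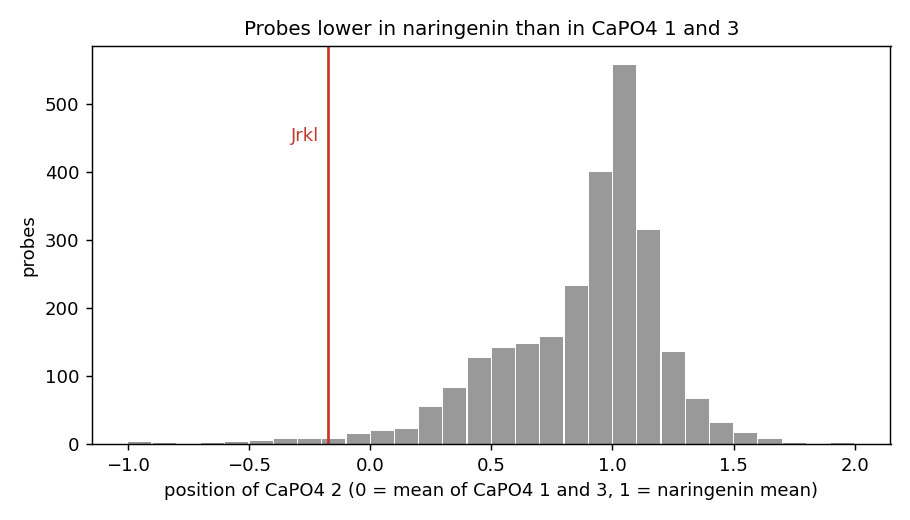
Position of CaPO4 2 for the 2569 probes at least 2 log2 lower in naringenin than in the mean of CaPO4 1 and 3, where 0 is that mean and 1 the naringenin mean; bars count probes, and positions under -1 or over 2 are drawn at those ends. Most probes lie near 1, with a median of 0.97, and Jrkl (red line) lies at -0.17.

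Complete separation of the groups was common, and Jrkl stood out by the width of the gap. Of 37436 probes with a value on all 6 arrays, 4395 (11.7%) were lower on every naringenin array than on every CaPO4 array, and 4663 (12.5%) were higher. Without CaPO4 2 there were 10878 lower probes. For 3281 of 36923 probes (8.89%) every naringenin array lay below all 6 other arrays, as for Jrkl. The gap between the lowest CaPO4 and the highest naringenin level was 3.89 log2 for Jrkl, against a median of 0.35 and a 99th percentile of 1.84 over the lower probes. None of the other lower probes had a wider gap. The next was the unnamed probe ASMM9PARTA028634 with 3.55, followed by ASMM9PARTA007440 with 3.40, ASMM9PARTA032076 with 3.28 and the ultraconserved element uc.46- with 3.22. Among probes that were higher on every naringenin array, 5 had a wider gap than Jrkl, all unnamed and none of them well above background on more than 1 CaPO4 array.

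That first place rested on values under background. With each naringenin level raised to the lowest level well above background on its array, the gap of Jrkl was 2.03 and it ranked 17th of 3616 lower probes, between ASMM9PARTA028736 with 2.04 and ASMM9PARTA032771 with 2.03. The 16 probes ahead of it were 14 unnamed probes, uc.46- and 1 cDNA clone. No other RefSeq gene and no lincRNA element was among them. With naringenin levels raised to the 95th percentile of the negative spots, the gap was 1.24, and 118 of 2995 lower probes had a wider one. Without CaPO4 2, 73 probes had a wider gap than Jrkl, or 0.671% of the lower probes. Within groups, the 3 CaPO4 levels of Jrkl spanned 0.89 log2 against a median of 0.72 over the lower probes. Its 3 naringenin levels spanned less, 0.26 against a median of 0.81. Those levels lay at background, and before scaling the intensities were 4.81 on naringenin 1 and 15.5 on naringenin 3.

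**Figure D3:**
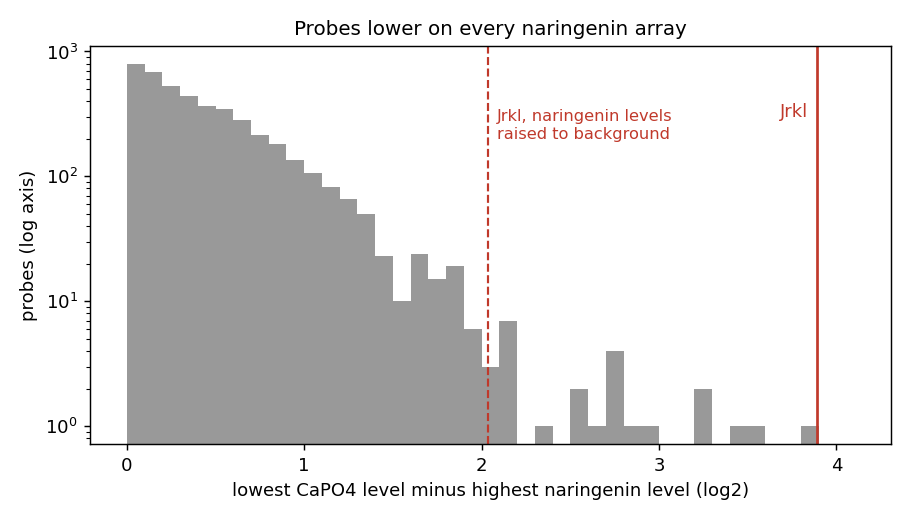
Gap between the lowest CaPO4 and the highest naringenin level, in log2, for the 4395 probes lower on every naringenin array; bars count probes on a log axis. Jrkl lies at the right end with 3.89 (solid line), and at 2.03 with naringenin levels raised to background (dashed line).

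Among named genes, Jrkl was 1 of very few that were lower. The array names 112 gene symbols through RefSeq, of which 102 had probes past the filter. Of the 112 RefSeq probes past the filter, 4 (3.57%) were lower on every naringenin array, 3 of them with a symbol, and 10 (8.93%) were higher. Tbp, the TATA-box-binding protein of basal transcription, had a gap of 0.98, with CaPO4 levels of 0.41, 0.19 and 0.43 and naringenin levels of -0.80, -0.98 and -1.54. Mucl2, a mucin-like gene, had a gap of 0.88, with CaPO4 levels of -0.99, -2.78 and -1.16 and naringenin levels of -3.66, -4.26 and -4.35. It was well above background on 2 of 3 CaPO4 arrays and on no naringenin array. CaPO4 2, which sets its gap, was the CaPO4 array in background. Raised to the lowest level well above background on its array, naringenin 2 stood at -2.06, above CaPO4 2. With that floor Mucl2 no longer separated the groups. All 3 genes were also lower on every naringenin array than on every control. The 5 higher genes with the widest gaps were H2ac23, a histone gene (0.60), Ulbp1, a ligand of the NKG2D receptor of natural killer cells (0.42), H2al2b (0.41), Gm20822 (0.32) and Gm16513 (0.32). Their gaps were all narrower than that of Tbp.

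The probe most like Jrkl across the 9 arrays among RefSeq genes was Tbp, with a Pearson r of 0.935. Mucl2 followed at 0.870, then Gm3286 at 0.706, Actb, the beta-actin gene, at 0.692 and Nono, which encodes an RNA-binding nuclear protein, at 0.691. Actb and Nono do not repeat the pattern array by array. Actb was highest on CaPO4 2 at 8.21, between 7.29 and 7.64 on the other arrays except naringenin 3 at 6.60, while Nono was lower on CaPO4 2 (3.98) than on CaPO4 1 and 3 (5.42 and 5.53). Among lincRNA and ultraconserved elements the most alike were uc.46- (0.981), MM9LINCRNAEXON12016+ (0.973), MM9LINCRNAEXON10039+ (0.958), MM9LINCRNAEXON10034- (0.958) and uc.471+ (0.955). Of these, MM9LINCRNAEXON10039+ was well above background on only 2 control, 1 CaPO4 and 1 naringenin array. The element uc.46- stood at 4.66, 4.73 and 4.86 in the controls and at 3.34, 4.35 and 3.48 in CaPO4 1 to 3. In naringenin 1 to 3 it stood at 0.12, -0.09 and -0.72, still well above background on every array. As for Jrkl, CaPO4 2 was the highest of its group. MM9LINCRNAEXON12016+ had levels of 1.87 to 2.02 on the 6 control and CaPO4 arrays and -0.58 to 0.08 on naringenin. Of 36922 other probes with 9 values, 372 (1.01%) had an r of 0.9 or more with Jrkl and 208 (0.563%) one of -0.9 or less. These correlations describe the same 9 arrays with the same scaling, and with 3 arrays far from the other 6 they rest on the naringenin group.

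The neighbour of Jrkl on chromosome 9, Ccdc82, was also named on the array and was chosen for its position after the gene names were seen. Its 3 groups overlapped. Its levels were 4.06, 4.23 and 4.37 in the controls. They were 4.20, 5.51 and 4.33 in CaPO4 1 to 3, where CaPO4 2 lay apart, and 5.15, 5.15 and 4.35 in naringenin 1 to 3. In naringenin minus CaPO4, Ccdc82 differed by 0.20 ± 0.41 log2 (SE of the limma model, n = 3 per group), given with no test, and by 0.02 (array median) to 1.40 (no scaling) over the scalings. Without CaPO4 1 it was -0.04 and without CaPO4 2 it was 0.62. In the contrasts with control, which did not choose Jrkl, Ccdc82 was tested. It differed by 0.46 ± 0.41 in CaPO4 (95% interval -0.46 to 1.38; limma adjusted p = 0.443), where 21.5% of probes were called. In naringenin it differed by 0.66 ± 0.41 (95% interval -0.26 to 1.59; limma adjusted p = 0.209), where 45.9% were called. Both intervals hold 0, and neither shows a change or its absence. In both contrasts, groups cannot be told apart from scans, as the controls had their own scan. The other protein-coding genes around Jrkl in the annotation, Cntn5 on the far side of Jrkl and Maml2 beyond Ccdc82, were not named on the array.

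**Figure D4:**
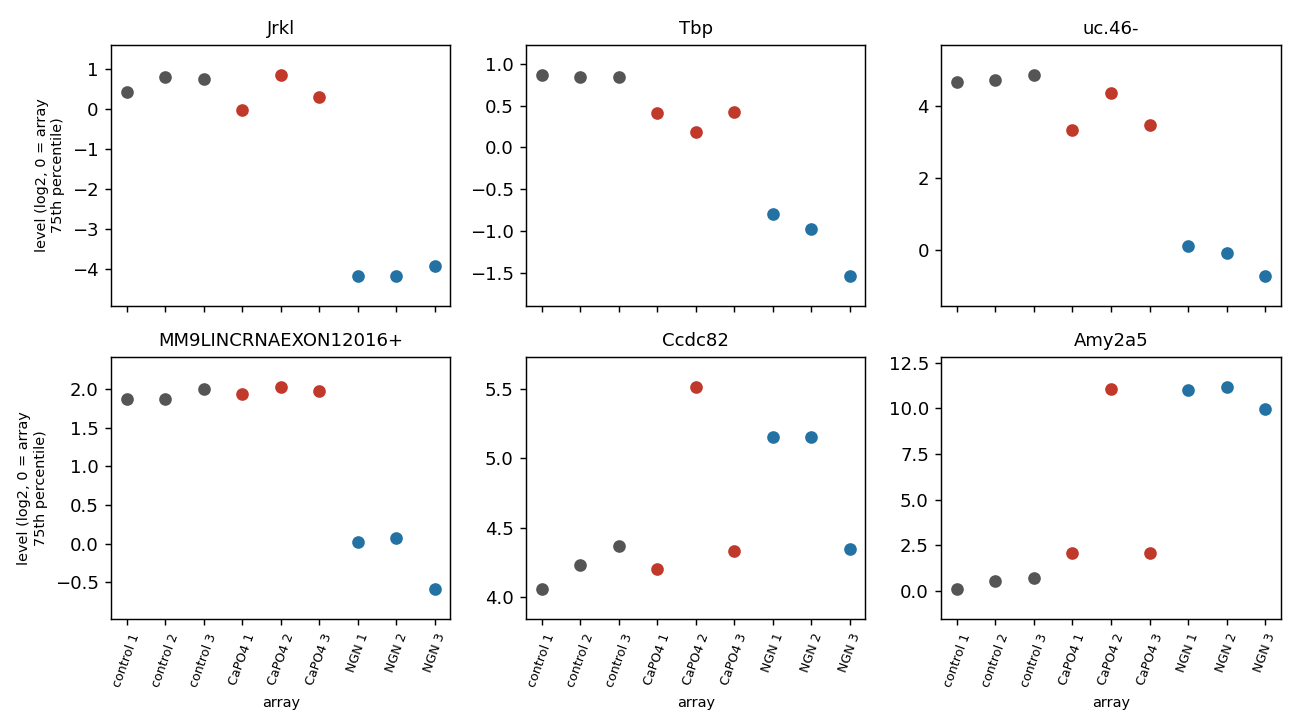
Levels of Jrkl, of Tbp, the RefSeq gene with the highest r to it, of uc.46- and MM9LINCRNAEXON12016+, the noncoding elements with the highest r, of its neighbour Ccdc82 and of Amy2a5 on the 9 arrays (controls grey, CaPO4 red, naringenin, NGN, blue), each on its own axis of log2 level with 0 at the 75th percentile of the array. In Jrkl, uc.46- and MM9LINCRNAEXON12016+ all CaPO4 arrays lie with the controls or between them and naringenin, while in Amy2a5 CaPO4 2 lies at 11.08, with naringenin.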

How the data were processed

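The authors read spot intensity from scans using the software Agilent Feature Extraction, version 11.0.1.1, per the submitters' processing notes, from Cy3-labelled RNA amplified by random priming after removal of ribosomal RNA, per the labels' protocols. The deposited scanner files hold background-subtracted intensity, raw spot and background intensity, and marks per spot, on a design annotated to mm9 per the file headers. The deposited table of all arrays holds the same unscaled intensity, within 0.0999%. An accession was named through a GRCm38 table (116 of 123 matched), from which names, chromosome and gene order were taken, and no positions.

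Control, negative and outlier spots were removed, spots of a probe were averaged on the log2 scale, and each array's 75th percentile was subtracted. Probes well above background on at least 3 of 9 arrays were kept (37498 of 59709, Jrkl included); with repeated spots, at least 50% had to be. A limma 3.58.1 model (R 4.3.3) with a mean per group was fitted over all kept probes, with two-sided moderated tests and Benjamini-Hochberg adjustment at 0.05. The test planned for Jrkl in CaPO4 minus control is not reported, since the CaPO4 arrays entered the choice of the gene. The limma model was tested on simulated data. Normexp, planned on the mean signal of a spot, used its median signal, the column at hand. The number of arrays limits precision. Jrkl, the gene lists and the rule for genes to name (widest gaps and highest r) were chosen with earlier results of these data known. Alternatives covered scaling, background correction, filter, outlier spots, the deposited table, scan, replicate block and leaving out each array. Plots used matplotlib 3.10.9 under Python 3.11.15.

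Replicate numbers are shared between groups. Of same-numbered arrays, 2 of 9 pairs had deviations that correlated over 0.1, with r from -0.17 to 0.24. These were CaPO4 and naringenin 2 (0.22) and CaPO4 and naringenin 3 (0.24). With 3 arrays per group and CaPO4 2 apart from its group, these values cannot settle whether arrays were paired. The main model used no pairing.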

Additional observations from a re-analysis of the deposited data

How the results depend on the processing

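All 3 Jrkl differences kept their sign in every run. For naringenin the choice of Jrkl fixed it against CaPO4, with any array left out, and favoured it against control. For CaPO4 minus control the sign says little, since the main difference was smaller than its SE. It was -0.06 ± 0.34 (SE) with the array median and -0.63 ± 0.32 (SE) with the percentile over detected probes. Without scaling it was -1.40 ± 0.63 (SE). Without scaling, naringenin minus CaPO4 was -3.28, 415 probes were lower and 14152 higher on every naringenin array, and 4 lower probes had a wider gap than Jrkl. With normexp, whose offset of 50 compresses low values, naringenin minus CaPO4 was -1.56 and minus control -1.87. It gave 80 wider gaps and 2822 higher probes. The percentile over detected probes gave -5.06 for naringenin minus control, and the array median 2982 higher probes. With probes detected on all 9 arrays only, fewer were counted, 2866 lower and 1506 higher. Jrkl fails that filter and was kept in by plan, so this setting says nothing of its values. With naringenin levels raised to background, chosen after seeing the data, the differences were -3.25 and -3.54 and 16 gaps were wider, and counting higher probes as well, also added, gave 5. Raised to the 95th percentile of the negative spots, likewise added, the differences were -1.82 and -2.11 and 118 gaps were wider. Leaving out each array in turn gave -0.53 to -0.09 for CaPO4 minus control, -4.67 to -4.23 for naringenin minus CaPO4, -4.87 to -4.69 for naringenin minus control, 4395 to 10878 lower and 4663 to 13792 higher probes, and 0 to 73 wider gaps, the upper ends of the counts without CaPO4 2. Without naringenin 3, 7593 probes were higher. Calls by limma in CaPO4 minus control, 8006 in the main run, ranged from 2691 with scan as a random block to 11859 without scaling. The 17114 called in naringenin minus control became 9539 without scaling. The replicate block left the differences at -0.29, -4.47 and -4.76 with an SE of 0.35 each. Within the scan of CaPO4, which holds naringenin 1 and 2 but not 3, naringenin minus CaPO4 was -4.55. Leaving out naringenin 3 or blocking by scan gave it too. With scan as a random block the differences from control were -0.26 and -4.75. With Jrkl in background on naringenin arrays, only a bound can be read, which moves with floor and scaling.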
